A study of Mus musculus with 8 samples.

Results

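Growth hormone (GH) and the insulin-like growth factor (IGF) system form 1 endocrine axis, and 10 of its genes were followed here in mouse liver cells by their gene symbols, out of 25229 symbols in the read count tables. They are the GH receptor gene Ghr, the transcription factor gene Stat5b, the feedback inhibitor genes Socs2 and Cish, the growth factor gene Igf1, its circulating partner Igfals, and the binding protein genes Igfbp1, Igfbp2, Igfbp3 and Igfbp4. All 10 passed the filter on low counts, which left 14728 genes to be tested. The samples were 8 mouse livers, each 1 library of RNA depleted of ribosomal RNA and sequenced by strand. The series asks what depletion of Adar1, the gene of an enzyme that edits adenosine to inosine in double-stranded RNA, does to the liver when the RNA sensor MDA5 is missing.

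Every mouse, controls included, was Ifih1-/-, so it lacked the gene of MDA5, was on the C57BL/6 strain, and carried Alb-Cre, a recombinase driven by the albumin promoter and therefore active in hepatocytes. The Adar1 alleles were wt/wt in 3 mice, wt/flox in 2 mice and flox/flox in 3 mice. The design text gives n = 2 for flox/flox, but 3 samples carry that genotype and all were used. Replicates 1, 2 and 3 of each genotype were 11, 9 and 7 weeks old, and wt/flox had no replicate 3. Per the labels' protocols, the liver was perfused with collagenase and the cells were pelleted at low speed, freed of red cells and passed through Percoll, a density gradient, which enriches hepatocytes. No group had Ifih1, and no group lacked the recombinase, so neither can be compared here.

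In liver, GH binds its receptor, which activates the kinase JAK2 and then STAT5B. STAT5B enters the nucleus and switches on Igf1, Igfals, Socs2 and Cish, and the SOCS2 and CIS proteins dampen the receptor in turn. GH is released in pulses, and the pattern of the pulses differs between male and female mice, which gives the liver many genes of sex-biased expression. IGF1 leaves the liver bound to IGF binding proteins, and most of it circulates in a complex of IGFBP3 and the acid-labile subunit encoded by Igfals. Igfbp1 is set apart by its fast control through insulin, which represses it through FOXO1, so that it rises on fasting.

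Promoter sequences of 3 members are shown because their levels differed most between libraries among the members with a searched match: Cish and Igfals carry the letters STAT5 is known to recognise, and Igfbp1 carries letters known as an insulin response element. They are RefSeq windows on GRCm38.p6 from 250 bases before to 50 bases after the transcript start, on the plus strand, written 5′ to 3′. The Cish window is chr9:107296409-107296708, the Igfals window chr17:24877981-24878280 and the Igfbp1 window chr11:7197537-7197836. Capitals mark TTCNNNGAA in Cish and Igfals, and CAAAACA in Igfbp1.
Cish: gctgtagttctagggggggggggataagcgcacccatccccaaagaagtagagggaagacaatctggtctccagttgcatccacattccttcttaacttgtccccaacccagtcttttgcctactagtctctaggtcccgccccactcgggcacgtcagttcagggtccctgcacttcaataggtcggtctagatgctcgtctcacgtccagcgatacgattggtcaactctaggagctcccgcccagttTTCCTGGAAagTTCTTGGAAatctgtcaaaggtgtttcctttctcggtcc
Igfals: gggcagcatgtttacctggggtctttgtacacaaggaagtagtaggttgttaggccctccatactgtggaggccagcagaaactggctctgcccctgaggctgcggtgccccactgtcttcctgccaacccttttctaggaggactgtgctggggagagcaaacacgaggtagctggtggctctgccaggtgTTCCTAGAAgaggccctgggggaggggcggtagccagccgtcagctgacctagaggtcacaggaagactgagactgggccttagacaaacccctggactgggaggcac
Igfbp1: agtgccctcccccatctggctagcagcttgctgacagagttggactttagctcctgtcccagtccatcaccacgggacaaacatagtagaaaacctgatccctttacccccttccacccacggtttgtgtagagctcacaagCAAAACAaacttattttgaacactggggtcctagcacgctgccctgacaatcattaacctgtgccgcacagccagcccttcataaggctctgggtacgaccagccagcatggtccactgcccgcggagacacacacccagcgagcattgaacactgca
Both strands were searched. In Cish the 2 matches began at the start base itself and 11 bases after it, and in Igfals the match began 58 bases before it. A further Igfals window, chr17:24877594-24877893, had 1 match that began 236 bases before its own start, and another, chr17:24878497-24878796, had 0. TTCNNNGAA occurred in 8.3% of the 32851 windows of this length in the table. It occurred in 3 of the 14 windows of members, which belong to 2 of the 9 members that the table holds. CAAAACA occurred in 6.28% of all windows, and among the members only in Igfbp1, 108 bases before the start. TGTTTAC, a forkhead motif, occurred in 3.65% of windows, and among the members in the printed Igfals window, where it began 242 bases before the start. TATAAA occurred in 13.62% of windows, and among the members in 1 Ghr window and in Igfbp4, where it began 28 bases before the start. Socs2 is a member with no window in the table. A match describes letters only.

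Before the results, 3 facts on the libraries matter. Sense reads in genes ranged from 75875711 to 132303735, and values below are CPM, read counts scaled to library size, with TMM, a correction for library composition. Reads of Xist, which marks the inactive X, and of 4 genes of the Y chromosome matched the labelled sex in 6 of the 8 libraries and went against it in the other two. The flox/flox library of replicate 1, female by label, held 31 Xist and 21255 Y-linked reads, and that of replicate 2, male by label, held 246646 Xist and 0 Y-linked reads. By transcripts, 5 libraries were male and 3 were female: wt/wt replicate 3 and flox/flox replicates 2 and 3. The deposited tables mark all wt/flox and flox/flox libraries as a second batch and leave wt/wt unmarked, so genotype and batch mark cannot be told apart in either comparison with wt/wt, whereas flox/flox and wt/flox share the mark. Adar itself was not lower in flox/flox, with mean CPM values of 37.2 ± 14.2 (SD, n = 3) for wt/wt, 26.9 ± 6.93 (n = 2) for wt/flox and 42.4 ± 6.74 (n = 3) for flox/flox, and an edgeR adjusted p of 0.626 for flox/flox against wt/wt. Reads over the whole gene include exons outside a floxed part, so they are a weak check of the genotype. Each library held 0 to 4 Ifih1 reads.

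Hepatocyte markers were present in every library, and their summed level over 10 genes was 88460 to 104900 CPM in wt/wt, 116700 to 136400 in wt/flox and 132800 to 202000 in flox/flox. Alb alone made up most of each sum, at 63590 to 79950, 86650 to 97620 and 98250 to 171700 CPM in that order. Its edgeR adjusted p for flox/flox against wt/wt was 0.053, which did not pass. In that comparison 2 of the 10 were higher and 1 lower by edgeR, beside 29.9% of all tested genes in either direction. Markers of the other liver cells were present at far lower sums. The 14 sinusoidal endothelial markers summed to 217.5 to 345.5, 107.8 to 121.4 and 95.3 to 198.3 CPM in the same order, and 9 of them were lower in flox/flox than in wt/wt by edgeR's adjusted p. The 13 Kupffer cell and macrophage markers summed to 70.3 to 294.1, 39.2 to 41.1 and 39.0 to 133.6 CPM. In flox/flox against wt/wt, 0 of these 13 passed by edgeR, 2 had an unadjusted p under 0.05, DESeq2 called 2 and limma-voom 0. In wt/flox against wt/wt these counts were 0, 8, 8 and 0. Of the 14 endothelial markers, 8 passed there by edgeR, 12 by DESeq2 and 5 by limma-voom, beside 12.5% of all tested genes by edgeR. The cholangiocyte markers summed to 41.1 to 46.3, 39.3 to 72.7 and 66.6 to 125.5 CPM, and of the 6 of 9 that were tested, 2 were higher and 1 lower in flox/flox than in wt/wt by edgeR.

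Levels of the 10 genes spanned a wide range when scaled per kilobase of exon. Igfbp1 averaged 305.2 CPM per kb over the 8 libraries, followed by Igfbp4 at 263.5, Igfbp2 at 155.1, Igf1 at 93.3, Ghr at 74.2, Igfals at 49.6 and Stat5b at 15.4. The feedback genes Socs2, at 1.93 CPM per kb, and Cish, at 1.83, lay far below, and Igfbp3 was the lowest at 0.582. Igfbp1 and Igfbp4 did not separate beyond their spread, since Igfbp1 ranged 13.6-fold between libraries, and neither did Socs2 and Cish, which ranged 28.8-fold and 15.8-fold.

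The genes fell into steady and unsteady ones. The SD of log2 CPM within genotypes was 1.92 for Socs2, 1.56 for Cish, 1.36 for Igfbp1 and 0.955 for Igfbp3, values at or above those of 98.9%, 98.0%, 97.0% and 91.4% of all tested genes. It was 0.608 for Igfals, 0.441 for Igfbp2 and 0.229 for Stat5b. For Ghr it was 0.158, for Igf1 0.141 and for Igfbp4 0.066, the last at the percentile 1.5 of all tested genes. Between the highest and the lowest of the 8 libraries, Igf1 varied 1.29-fold and Igfbp4 1.46-fold.

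**Figure D1:**
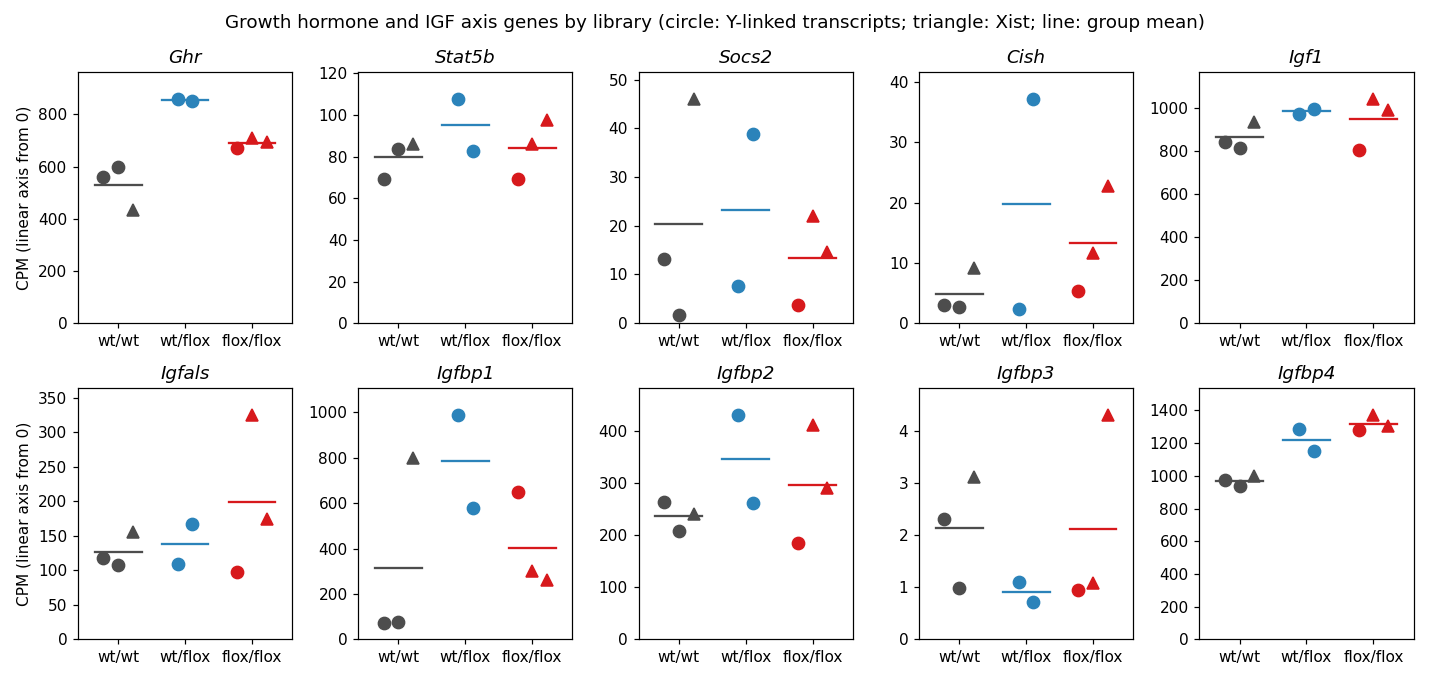
Level of each gene in every library (vertical axis, CPM on a linear axis from 0; horizontal axis, genotype). Each point is 1 mouse, circles have Y-linked transcripts, triangles have Xist, and lines are group means. Socs2, Cish and Igfbp1 spread widely within a genotype, while Igf1 lay between 804.8 and 1042 CPM in all 8 libraries.

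**Figure D2:**
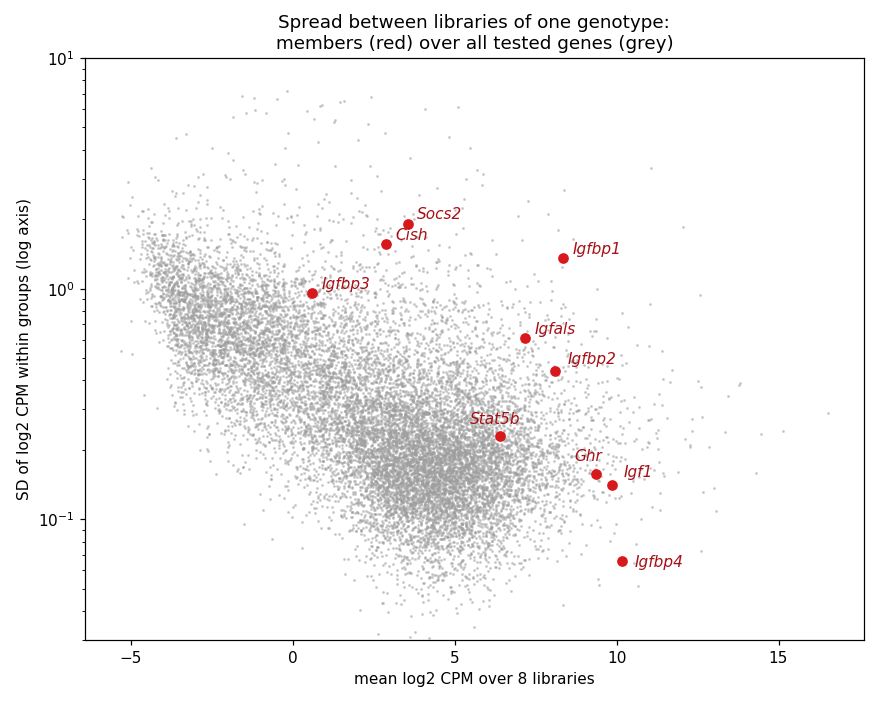
SD of log2 CPM within genotypes (vertical log axis) against mean log2 CPM over 8 libraries (horizontal axis) for all 14728 tested genes in grey and the 10 axis genes in red. Igfbp4 sits at the low edge of the spread with an SD of 0.066, and Socs2, Cish and Igfbp1 lie above most genes of like level.

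Between genotypes, few of the 10 genes passed the test. In flox/flox against wt/wt, 1 of 10 did, Igfbp4, which was higher. Of all tested genes, 29.9% passed in this comparison and 15.1% did so in the higher direction. In wt/flox against wt/wt, again 1 of 10 passed, Ghr, which was higher, beside 12.5% of all genes, 6.58% in the higher direction. In flox/flox against wt/flox, 0 of 10 passed by edgeR and 0 of 10 had an unadjusted p under 0.05, where 0.0% of all genes passed and 1240 had an unadjusted p under 0.05. DESeq2 called 75 genes there and limma-voom 0, and neither called any of the 10. With sex by transcripts as a term the same 1 of 10 passed in each comparison with wt/wt, beside 29.1% and 14.5% of all genes, and with labelled sex 0 of 10 passed by edgeR in either, beside 24.8% and 8.83%, with 2 of 10 at an unadjusted p under 0.05 in each. The median log2 fold change of the 10 was 0.34 between flox/flox and wt/wt, -0.2 between flox/flox and wt/flox, and 0.29 between wt/flox and wt/wt. Over all tested genes the medians were 0.02, 0.04 and -0.06. With sex by transcripts as a term the medians of the 10 were 0.17, -0.31 and 0.53, so which comparison with wt/wt had the larger one depended on that term. The comparisons with wt/wt share those libraries and cannot be read as independent.

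Separation of all libraries gave a similar picture. Ghr and Igfbp4, 2 of 10, were higher in every flox/flox than in every wt/wt library, where 23.0% of all genes did the same. Ghr, Igf1 and Igfbp4, 3 of 10, were higher in both wt/flox than in every wt/wt library, beside 25.8% of all genes. Ghr alone was lower in every flox/flox than in both wt/flox libraries, beside 13.1% of all genes. These shares are near the background.

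**Figure D3:**
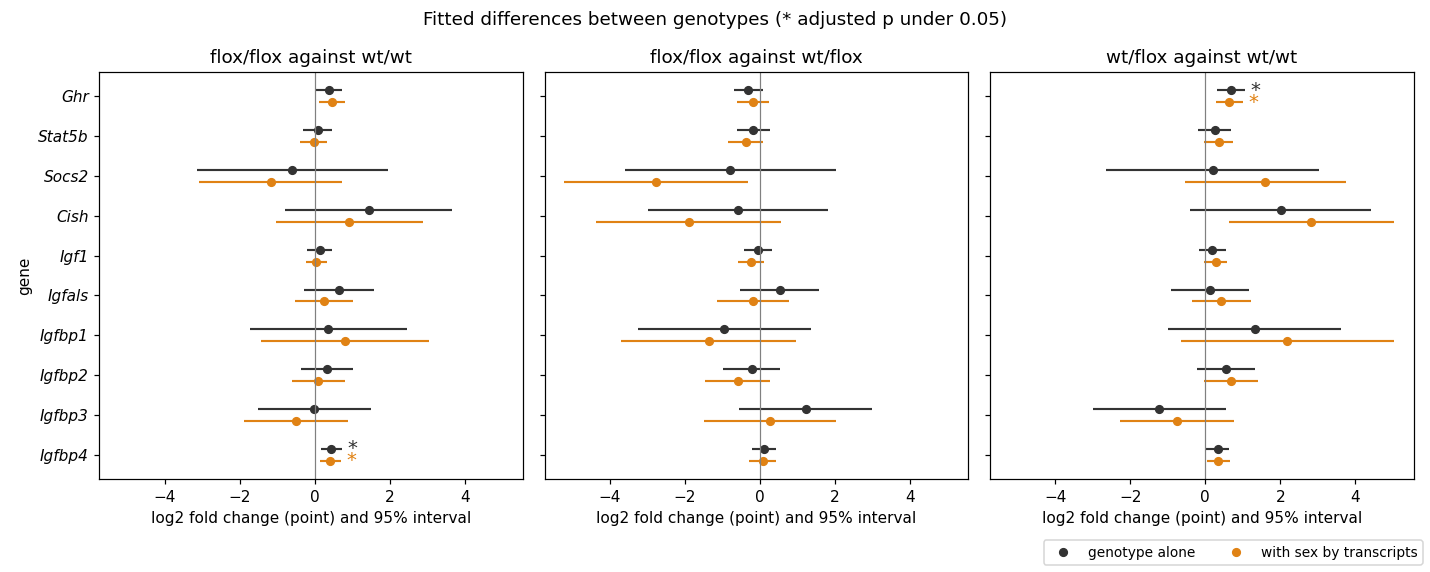
Fitted log2 fold changes (horizontal axis) of the 10 genes in the 3 comparisons, with 95% intervals as bars, from the fit with genotype alone (black) and with sex by transcripts as a term (orange). A star marks an edgeR adjusted p under 0.05. Intervals are narrow for Igfbp4, Ghr, Igf1 and Stat5b and wide for Socs2, Cish and Igfbp1.

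Ghr, on chromosome 15 from 3317760 to 3583492 on the minus strand (GRCm38, GENCODE M21), encodes the receptor that starts the axis. It measured 560.5, 597.5 and 432.9 CPM in wt/wt replicates 1 to 3, 859.5 and 851.8 in the wt/flox pair and 671.5, 707.9 and 694.5 in flox/flox mice. The 3 genotypes did not overlap, with wt/wt lowest, flox/flox between and wt/flox highest. How many of all tested genes kept this full order was not counted. Only the pairwise shares given above, 23.0%, 25.8% and 13.1%, are at hand. Against wt/wt, wt/flox was 1.61-fold higher, a log2 fold change of 0.69 (SE 0.16, 95% interval 0.31 to 1.07) with an edgeR adjusted p of 0.0345. Flox/flox was 1.30-fold higher, at 0.38 (SE 0.15), with an adjusted p of 0.0862, which did not pass. Against wt/flox, flox/flox had a log2 fold change of -0.31 (95% interval -0.69 to 0.07) and an adjusted p of 0.56. The wt/flox call was lost on leaving out wt/wt replicate 1, 2 or 3 (adjusted p 0.0813, 0.0764 and 0.0603), wt/flox replicate 1 or 2 (0.15 and 0.177) or flox/flox replicate 2 (0.0532), with values between 0.56 and 0.78. Removing a trend of fold change with exon length gave 0.49 with 0.118. For flox/flox against wt/wt, the same removal gave 0.13 with an edgeR adjusted p of 0.564. In these bulk samples, fewer cells of a type and less RNA per cell cannot be told apart.

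Stat5b, on chromosome 11 from 100780731 to 100850724 on the minus strand, encodes the factor that carries the GH signal to the nucleus, and lies 8626 bases from its close relative Stat5a. It measured 69.1, 83.8 and 86.3 CPM in wt/wt mice, 107.8 and 82.6 in the wt/flox pair and 69.1, 85.9 and 97.5 in flox/flox mice. All 3 genotypes overlapped. The flox/flox to wt/wt ratio was 1.06 with a 95% interval from 0.804 to 1.39, and wt/flox to wt/wt was 1.19 with an interval from 0.882 to 1.62. The edgeR adjusted p was 0.751 and 0.378. Regulation of STAT5B is known to act on its phosphorylation, which reads do not measure.

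Socs2, on chromosome 10 from 95385362 to 95417180 on the minus strand, encodes a brake on GH signalling that is itself induced by the signal. It measured 13.1, 1.60 and 46.1 CPM in wt/wt mice, 7.70 and 38.8 in the wt/flox pair and 3.66, 21.9 and 14.6 in flox/flox mice. Each genotype held both a low and a high library. Flox/flox against wt/wt had a log2 fold change of -0.60 with a 95% interval from -3.15 to 1.96, and the edgeR adjusted p was 0.706. Against wt/flox the value was -0.79 (-3.60 to 2.02) with 0.804. With sex by transcripts as a term it became -2.77 (-5.23 to -0.32), with an unadjusted p of 0.0316 and an adjusted p of 0.993.

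Cish, on chromosome 9 from 107296026 to 107302784 on the plus strand, encodes CIS, another feedback inhibitor of the receptor, and its printed window lies inside the annotated gene. The annotated genes Gm17040 and Gm17041 overlap it on the other strand. It measured 2.93, 2.61 and 9.14 CPM in wt/wt mice, 2.35 and 37.2 in the wt/flox pair and 5.32, 11.7 and 22.8 in flox/flox mice. The highest and the lowest of the 8 libraries were both wt/flox, with 37.2 in replicate 2 and 2.35 in replicate 1. Flox/flox was 2.71-fold above wt/wt in the fit, with a 95% interval from 0.583-fold to 12.6-fold and an edgeR adjusted p of 0.288. The wt/flox value was 4.04-fold (0.758-fold to 21.5-fold) with 0.222. Socs2 over Cish in CPM ranged from 0.612 in wt/wt replicate 2 to 5.04 in wt/wt replicate 3. These feedback genes thus did not keep a fixed ratio. Their log2 CPM still had a Pearson's r of 0.67 over the 8 libraries, and of 0.73 once the genotype means were removed.

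Igf1, on chromosome 10 from 87858265 to 87937042 on the plus strand, encodes the growth factor that the liver secretes in response to GH, and Igf1os is annotated on the opposite strand. It measured 842.2, 813.9 and 933.6 CPM in wt/wt mice, 972.6 and 995.6 in the wt/flox pair and 804.8, 1042 and 991 in flox/flox mice. Both wt/flox libraries stood above all wt/wt libraries, and flox/flox held the lowest and the highest of the 8. Flox/flox to wt/wt was 1.10, with a 95% interval from 0.871 to 1.38 and an edgeR adjusted p of 0.512. Wt/flox to wt/wt was 1.14 (0.883 to 1.47) with 0.438, and flox/flox to wt/flox was 0.961 (0.744 to 1.24) with 0.9. The intervals leave room for changes of up to 1.47-fold. Of the reads over Igf1, 2.37% to 3.66% were antisense.

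Igfals, on chromosome 17 from 24865997 to 24882010 on the plus strand, encodes the acid-labile subunit, which holds IGF1 and IGFBP3 in the circulating complex. It measured 117.6, 107.6 and 155.6 CPM in wt/wt mice, 108.8 and 167.3 in the wt/flox pair and 97.8, 325.3 and 175.2 in flox/flox mice. Flox/flox replicate 2 was the highest of the 8 and flox/flox replicate 1 the lowest. The flox/flox to wt/wt ratio was 1.57, with a 95% interval from 0.823 to 3.00 and an edgeR adjusted p of 0.254. With sex by transcripts as a term it was 1.18 (0.694 to 2.02) with 0.605. Wt/flox to wt/wt was 1.09 (0.530 to 2.23) with 0.872.

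Igfbp1, on chromosome 11 from 7197782 to 7202546 on the plus strand, encodes the binding protein that follows fasting and insulin. It measured 72.6 and 74.5 CPM in wt/wt replicates 1 and 2 but 797.9 in wt/wt replicate 3. The wt/flox pair measured 987.5 and 580.4 and the flox/flox libraries 649.6, 300.9 and 259.9. Wt/wt thus held the 2 lowest libraries and the second highest of the 8. Flox/flox against wt/wt had a log2 fold change of 0.36 (SE 0.91, 95% interval -1.74 to 2.45) and an edgeR adjusted p of 0.787, and wt/flox against wt/wt had 1.31 (SE 1.00) with 0.39. Without wt/wt replicate 3 they were 2.46 with an adjusted p of 0.0117 and 3.41 with 0.0279, so that library alone decided both calls. That library was the 7-week-old female of its group, and its Kupffer cell and macrophage markers summed to 294.1 CPM, beside 71.4 and 70.3 in wt/wt replicates 1 and 2. The labels give no feeding state, and the part of age, sex or those cells was not tested. As a share of the summed CPM of Igfbp1 to Igfbp4, Igfbp1 made up 5.53%, 6.11% and 39.0% for wt/wt, 36.5% and 29.1% for wt/flox, and 30.7%, 14.4% and 14.0% for flox/flox.

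**Figure D4:**
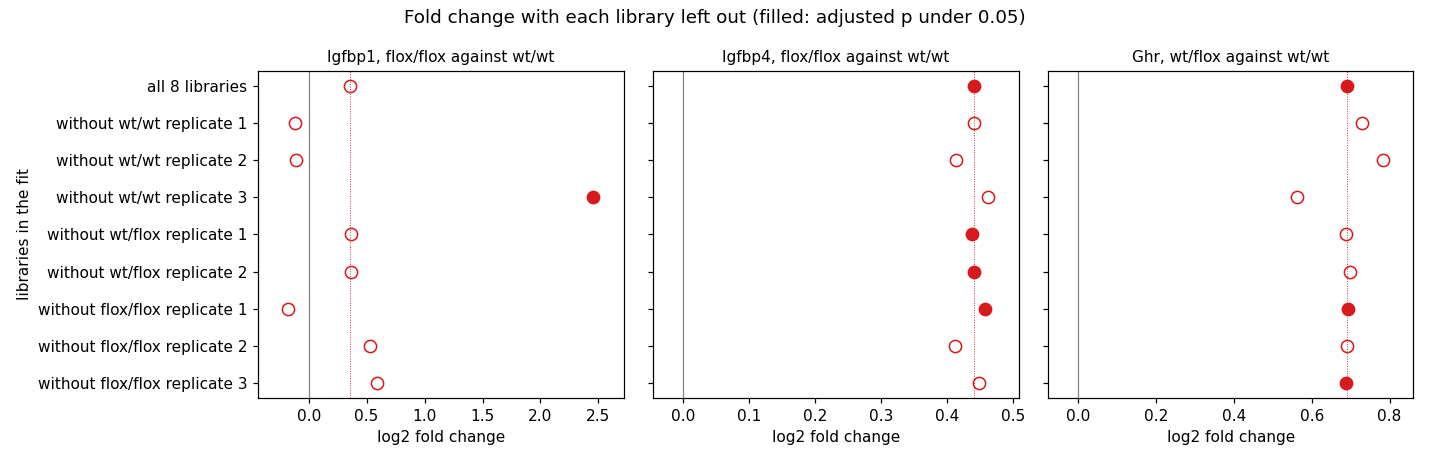
Log2 fold change (horizontal axis) with all libraries and with each library left out in turn (rows) for Igfbp1 and Igfbp4 in flox/flox against wt/wt and for Ghr in wt/flox against wt/wt. Filled points have an edgeR adjusted p under 0.05. Igfbp1 moved to 2.46 without wt/wt replicate 3, whereas Igfbp4 stayed between 0.41 and 0.46 and Ghr between 0.56 and 0.78.

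Igfbp2, on chromosome 1 from 72824503 to 72852474 on the plus strand and 5457 bases from Igfbp5, encodes an abundant binding protein of serum. It measured 262.8, 207.3 and 241.5 CPM in wt/wt mice, 430.4 and 262.0 in the wt/flox pair and 185.8, 410.5 and 290.8 in flox/flox mice. Flox/flox held the lowest library and wt/flox the highest, and the genotypes overlapped. The flox/flox to wt/wt ratio was 1.25 (95% interval 0.771 to 2.02) with an edgeR adjusted p of 0.45, and wt/flox to wt/wt was 1.46 (0.858 to 2.48) with 0.289. Its antisense share of reads did not overlap between genotypes, at 16.3% to 17.2% for wt/wt, 18.0% to 19.4% for wt/flox and 20.5% to 21.9% for flox/flox, with no test run. Igfbp1 showed the same order without overlap, at 7.44% to 8.57%, 8.65% to 9.61% and 9.63% to 10.5%. These were 2 of the 10 genes, and 1.7% of all tested genes showed this order without overlap. For Igf1 the share was highest in wt/wt, at 3.20% to 3.66%, beside 2.37% to 3.00% for wt/flox and 2.78% to 3.01% for flox/flox. Over all genes of a library the antisense share was 7.17% to 7.51% for wt/wt, 6.43% to 7.20% for wt/flox and 7.58% to 7.78% for flox/flox.

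Igfbp3, on chromosome 11 from 7206086 to 7213923 on the minus strand, lies 3539 bases from Igfbp1 with the genes pointing towards each other. It encodes the main carrier of IGF1 in blood, which in liver is known to come chiefly from cells other than hepatocytes. It measured 2.30, 0.989 and 3.12 CPM in wt/wt mice, 1.11 and 0.710 in the wt/flox pair and 0.944, 1.09 and 4.31 in flox/flox mice, from 50 to 568 reads a library. Flox/flox replicate 3 and wt/wt replicate 3 were the highest. The flox/flox to wt/wt ratio was 0.992 (95% interval 0.350 to 2.81) with an edgeR adjusted p of 0.991. Hepatic stellate markers, 11 genes, summed to 36.4 to 79.0 CPM in wt/wt, 35.7 to 47.8 in wt/flox and 43.9 to 97.5 in flox/flox, with 0 of 11 past edgeR's adjusted threshold in flox/flox against wt/wt, 3 at an unadjusted p under 0.05, 2 by DESeq2 and 1 by limma-voom. The 3 libraries with most Igfbp3 also had the 3 highest stellate sums, 97.5 in flox/flox replicate 3, 75.8 in wt/wt replicate 3 and 79.0 in wt/wt replicate 1. They had the highest Kupffer cell and macrophage sums too, at 133.6, 294.1 and 71.4 CPM, with wt/wt replicate 2 next at 70.3. Over the 8 libraries, Pearson's r of Igfbp3 with the marker sums, on log2 values, was 0.97 for stellate cells. It was 0.81 for Kupffer cells and macrophages and 0.74 for sinusoidal endothelial cells. The part of any of these cells in Igfbp3 was not tested. The antisense share of Igfbp3 ranged from 7.94% to 45.2%.

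Igfbp4, on chromosome 11 from 99041244 to 99054392 on the plus strand, encodes a binding protein that restrains IGF1 and is cut by the protease pappalysin. It measured 975.4, 937.2 and 1002 CPM in wt/wt mice, 1284 and 1155 in the wt/flox pair and 1280, 1372 and 1303 in flox/flox mice. All flox/flox and wt/flox libraries stood above all wt/wt libraries. Flox/flox was 1.36-fold higher than wt/wt, a log2 fold change of 0.44 (SE 0.12, 95% interval 0.16 to 0.72), with an edgeR adjusted p of 0.0294. Wt/flox was 1.26-fold higher, at 0.33 (0.02 to 0.64), with 0.14, and flox/flox to wt/flox was 1.08 (0.870 to 1.34) with 0.745. With sex by transcripts as a term the flox/flox value was 0.42 with 0.0404, and with labelled sex 0.44 with 0.0561. With no filter on low counts the adjusted p was 0.0521. The value without single libraries lay between 0.41 and 0.46, and the call was lost without wt/wt replicate 1, 2 or 3 (adjusted p 0.0882, 0.113 and 0.0535) and without flox/flox replicate 2 or 3 (0.0771 and 0.0559). It was 0.42 with 0.143 when both flox/flox libraries of contradicted sex were left out.

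The other genes of GH signalling gave 1 higher and 3 lower of 18 in flox/flox against wt/wt by edgeR's adjusted p, and 1 lower of 18 in wt/flox against wt/wt. Of all tested genes, 29.9% and 12.5% passed in these comparisons. Between flox/flox and wt/flox 0 of 18 passed, 1 had an unadjusted p under 0.05, DESeq2 called 1 and limma-voom 0. The list's median log2 fold changes were 0.03, -0.11 and -0.09 in that order. Ptpn6, which encodes the phosphatase SHP-1, measured 13.2, 13.9 and 15.9 CPM in wt/wt mice, 8.21 and 7.73 in the wt/flox pair and 7.54, 8.65 and 9.23 in flox/flox mice. Flox/flox was 1.69-fold lower than wt/wt (edgeR adjusted p 0.00502) and wt/flox 1.80-fold lower (0.0166), with no overlap between the libraries. Ptpn6 is abundant in blood-lineage cells. The Kupffer cell and macrophage sums given above were higher in each wt/wt library than in each wt/flox library and overlapped between wt/wt and flox/flox, and their part in Ptpn6 was not tested. Ptpn2, the phosphatase gene of JAK-STAT signalling, was 1.54-fold higher in flox/flox (0.00975), Ptpn1 was 1.58-fold lower (0.0222) and Shc1, an adaptor gene, 1.29-fold lower (0.04). Adding replicate number and sex by transcripts as terms lost the flox/flox calls of Ptpn2, Ptpn1 and Shc1. Their edgeR adjusted p was then 0.0825, 0.105 and 0.168, and that of Ptpn6 stayed under 0.05, at 0.0371. Single libraries also decided some of the calls against wt/wt. The wt/flox call of Ptpn6 was lost without wt/wt replicate 2 (0.0635) and wt/flox replicate 1 or 2 (0.09 and 0.132). The call of Ptpn1 in flox/flox against wt/wt was lost without wt/wt replicate 2 or 3 (0.0636 and 0.0579) or flox/flox replicate 2 (0.056). The call of Shc1 there was lost without any library but flox/flox replicate 1, at 0.0534 to 0.138, and with sex by transcripts as a term, at 0.0661. The gene of lowest p in flox/flox against wt/flox was Src, at a log2 fold change of 1.85 with an adjusted p of 0.558.

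Of 18 other IGF system genes in the files, 11 passed the filter. By edgeR's adjusted p, 2 of 11 were higher and 1 lower in flox/flox against wt/wt, and 2 were higher in wt/flox against wt/wt. The shares of all tested genes that passed there were 29.9% and 12.5%. Between flox/flox and wt/flox 0 of 11 passed, 1 had an unadjusted p under 0.05, and DESeq2 and limma-voom called 0. The list medians were 0.13, -0.07 and 0.04 in that order. The first median had the opposite sign with sex by transcripts as a term, at -0.4, with 2 higher and 2 lower, the second was 0.0 with 2 higher and 1 lower, and the third -0.16. Igf2r, which encodes the receptor that clears IGF2, measured 69.5, 70.2 and 67.3 CPM in wt/wt mice, 161.4 and 149.4 in the wt/flox pair and 157, 175 and 145.8 in flox/flox mice. Insr, the insulin receptor gene, measured 215.1, 196.1 and 219.4 CPM in wt/wt mice, 471.1 and 413 in the wt/flox pair and 438.2, 487 and 499.1 in flox/flox mice. All libraries of the other genotypes stood above all wt/wt libraries for both receptor genes. They rose by 2.31-fold and 2.26-fold in flox/flox (adjusted p 0.00103 and 0.00142) and by 2.25-fold and 2.10-fold in wt/flox (0.00833 and 0.0101). The wt/flox calls were lost without wt/flox replicate 1 (0.0701 and 0.0733) or 2 (0.0911 for both), and that of Insr also without wt/wt replicate 2 (0.0521). With the exon length trend removed, the log2 values in flox/flox were 0.95 for Igf2r and 0.79 for Insr, against 1.21 and 1.18 before. Grb14, an adaptor gene that restrains the insulin receptor, was 1.38-fold lower in flox/flox than in wt/wt (0.0248). This call was lost without wt/wt replicate 1 or 2 (0.0747 and 0.0843) or flox/flox replicate 2 or 3 (0.0802 and 0.0649). Grb14 also had the lowest p of this list between flox/flox and wt/flox, adjusted to 0.558.

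The insulin and FOXO1 responsive list, to which Igfbp1 is related, gave 1 higher and 1 lower of 13 in flox/flox against wt/wt by edgeR, and 1 higher in wt/flox against wt/wt. The shares of all tested genes were 29.9% and 12.5%. Between flox/flox and wt/flox 0 of 13 passed, 0 had an unadjusted p under 0.05, and DESeq2 and limma-voom called 0. Its medians were 0.19, 0.41 and -0.18 in that order. Pdk4, a fasting-induced kinase gene, was 3.12-fold lower in flox/flox than in wt/wt (adjusted p 0.0143). Mttp, which loads lipid onto lipoproteins, was 1.70-fold higher in flox/flox (0.0126) and 1.79-fold higher in wt/flox (0.0278). The first call was lost without wt/wt replicate 1 (0.0504), and the second without any one wt/wt or wt/flox library, at 0.0512 to 0.165.

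Sex-biased liver genes, which respond to the pulse pattern of GH, separated the libraries by the sex of their transcripts and not by the label. All 14 female-biased genes were higher in each of the 3 libraries with Xist than in each of the 5 with Y-linked reads. Of 15 male-biased genes, 14 were lower in each of the 3, the exception being Bcl6. In the edgeR fit with sex by transcripts as a term, 13 of 14 and 11 of 15 passed for sex, where 0.978% of all genes did. Among the male-biased genes, Hsd3b5 measured 112.5 to 260.3 CPM in the 5 Y libraries and 2.22 to 3.56 in the 3 others. Several of these genes, such as Mup20 and the Cyp2b and Cyp3a genes, have near-identical copies, so their counts are uncertain. Between genotypes, 0 of 14 female-biased genes passed by edgeR in any of the 3 comparisons without a sex term. In flox/flox against wt/wt 0 had an unadjusted p under 0.05 and DESeq2 and limma-voom called 0, in wt/flox against wt/wt these counts were 1, 7 and 0, and between flox/flox and wt/flox 4, 5 and 0. Their lowest adjusted p came from Trim24 in the first comparison (0.166) and from Cyp2b9 in the other 2 (0.144 and 0.558). The median log2 fold changes of the 14 were 1.48, -9.56 and 11.06 in that order. With sex by transcripts as a term they were 0.52, -0.12 and 0.43. Both wt/flox libraries were male by transcripts and the other genotypes held both sexes, so genotype and sex are mixed here. For the male-biased genes the medians were -0.7, 0.92 and -1.43, and 0.08, 0.28 and -0.43 with that term. Of all tested genes, 29.9%, 12.5% and 0.0% passed by edgeR in the same order. Of the male-biased genes, 1 of 15 passed, Bcl6, the gene of a repressor known from male liver, and that in flox/flox against wt/wt. In the other comparisons 0 of 15 passed by edgeR, DESeq2 or limma-voom, with 0 at an unadjusted p under 0.05 in wt/flox against wt/wt, where C8a was lowest (adjusted p 0.168), and 2 between flox/flox and wt/flox, where Bcl6 was lowest (0.558). With sex by transcripts as a term, 1 of 14 female-biased genes was higher and 1 lower in flox/flox against wt/wt and 0 passed in the others, while of the male-biased genes 1 of 15 was higher and 1 lower in flox/flox against wt/wt and 2 were higher in wt/flox against wt/wt, C8a among them (adjusted p 0.0296). Bcl6 was 3.17-fold lower in flox/flox with overlapping libraries, at an edgeR adjusted p of 0.0289 and of 0.0995 with sex by transcripts as a term. This call was lost without wt/wt replicate 1 or 2 (0.0843 and 0.075), wt/flox replicate 2 (0.0501) or flox/flox replicate 1 or 3 (0.0667 and 0.0838).

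For sex by transcripts, 0 of the 10 axis genes passed by edgeR, beside 0.978% of all tested genes, so 0 of 10 is near that share. Of the 10, 2 had an unadjusted p under 0.05, Socs2 and Igfals. Socs2 had the lowest p among them, with females 5.60-fold above males, an unadjusted p of 0.0203 and an edgeR adjusted p of 0.262. It ranged from 1.60 to 38.8 CPM in the 5 male libraries and from 14.6 to 46.1 in the 3 female ones. Igfals was 1.88-fold higher in females (0.288), Cish 3.27-fold (0.407) and Igf1 1.19-fold (0.386), while Ghr was 1.13-fold higher in males (0.609). Of the 18 other GH signalling genes 1 passed for sex, and of the 11 tested other IGF system genes 0 did. The 1 was Prlr, the gene of the prolactin receptor, a relative of the GH receptor. Females were 4.15-fold above males for Prlr (edgeR adjusted p 0.00949), at 445.5 to 919.7 CPM against 119.3 to 197.5. In wt/wt the female was also the youngest mouse, and flox/flox replicate 1, the oldest of its group, was its only male, so age and sex cannot be told apart within those groups.

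The genes most like each member were taken by Pearson's r of log2 CPM over the 8 libraries among 8795 other genes with a mean of at least 5 CPM. All points share libraries and genotype differences, so these values describe a ranking only. Igfbp4 was most like Manea (0.998) and Cr1l (0.993), Ghr most like Dnase2b (0.973) and Aadac (0.972), and Igfals most like Jup (0.962) and Kyat3 (0.958). For Cish they were Tlr3 (0.953) and Gbp11 (0.946), for Igfbp1 Rasgef1b (0.948) and D230025D16Rik (0.938), and for Igfbp3 Uaca (0.948) and F8 (0.944). For Igf1 they were Magi3 (0.954) and Mettl7b (0.95), for Igfbp2 Azi2 (0.958) and Dera (0.947), and for Stat5b Mindy2 (0.935) and Mcc (0.934). Socs2 had the weakest likeness, with Fut8 (0.801) and Egr1 (0.792).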

How the data were processed

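Ribosomal RNA-depleted, strand-specific libraries from 8 mouse livers were deposited as raw read counts per gene symbol, sense and antisense apart, per the file headers. The authors' build was GRCm38 (mm10) and they used DESeq2, per the submitters' processing notes. The aligner, the counter and their annotation were not given in the sources used here. The 5 rows that name no gene were left out. Reads in no gene made up 22.2% to 28.1% of sense reads for wt/wt, 31.65% to 37.3% for wt/flox and 34.5% to 40.0% for flox/flox. Multiply mapped reads, which no gene received, added 8.97% to 10.9% for wt/wt but 3.92% to 4.97% elsewhere. The TMM factors were 1.14 to 1.19 for wt/wt and 0.855 to 0.996 elsewhere. Both comparisons with wt/wt span these differences between libraries.

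Sense counts were tested with edgeR 4.0.16 (R 4.3.3), quasi-likelihood F test, two-sided, TMM size factors, filterByExpr by group, and p-values adjusted by Benjamini-Hochberg at 0.05 over 14728 genes. All 8 libraries entered 1 fit with genotype alone, because labelled sex went against the transcripts of 2 libraries, and 3 comparisons were taken from it. The standard error is the log2 fold change over the square root of F, and intervals are at 95%. Fold changes are those of the fit. Each library is 1 mouse, per the series' design text. Alternatives used limma 3.58.1, DESeq2 1.42.0, other scalings and filters, sex terms, the replicate number as a block, each library left out, antisense reads added and a trend with exon length removed. The code was tested on simulated counts.

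The 10 genes, the lists and the tests were chosen with earlier results of these data known. All 10 are named. From each list up to 4 genes past the threshold with the smallest adjusted p are named, or the 1 of smallest p, and 1 such gene is not reported here. Coordinates are GENCODE M21, and promoters are RefSeq windows on GRCm38.p6.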

Additional observations from a re-analysis of the deposited data

How the results depend on the processing

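No gene named as past the threshold with all libraries changed direction in any setting. Igfbp1 in flox/flox against wt/wt, not past it with all libraries (0.36), was -0.112 or -0.115 without wt/wt replicate 2 or 1, -0.175 without flox/flox replicate 1 and -0.29 without both libraries of contradicted sex. In flox/flox against wt/wt, 4400 genes passed by edgeR, and 1786 with the replicate block and sex by transcripts, 2915 without both libraries of contradicted sex, and 2195 to 4722 without single libraries. Of the 10 axis genes, 1 passed (Igfbp4; without wt/wt replicate 3 it was Igfbp1 instead), against 2 with DESeq2 (Ghr added, adjusted p 0.0446), 0 with no filter, with labelled sex and without both contradicted libraries, and 0 to 1 without single libraries. In flox/flox against wt/flox, DESeq2 called 75 genes and all other settings 0. In wt/flox against wt/wt, 1837 genes passed, and 3284 with DESeq2, 700 with the exon length trend removed, and 0 to 2525 without single libraries: 393 and 38 without wt/wt replicates 1 and 2, 1001 without wt/wt replicate 3, and 0 without wt/flox replicate 1 or 2, where 3256 and 2985 genes had an unadjusted p under 0.05. Of the 10, 1 passed (Ghr, and likewise Igfbp1 instead without wt/wt replicate 3), against 2 with DESeq2 (Igfbp4 added, 0.0232), 0 with labelled sex and with the length trend removed, and 0 to 1 without single libraries. Upper-quartile factors split that comparison into 835 higher and 1305 lower genes, against 969 and 868, with a median log2 fold change of -0.14 over all genes, beside -0.06.

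With the replicate block, 0, 0 and 0 of the 10 passed in flox/flox against wt/wt, flox/flox against wt/flox and wt/flox against wt/wt. Of all tested genes, 4794, 0 and 1439 passed there. At an unadjusted p under 0.05 there were 2, 0 and 1 of the 10, beside 6737, 888 and 4811 genes. With the block and sex by transcripts together, 0 of the 10 passed in either comparison with wt/wt, and 0 genes passed in wt/flox against wt/wt, where 4285 had an unadjusted p under 0.05. Same-numbered libraries share an age, but their deviations from the group means correlated at 0.01 to 0.45, not all above 0.1. Flox/flox replicate 1 went more with wt/wt replicate 2 (0.34) than with wt/wt replicate 1 (0.29), so the numbers were not taken to pair the mice. Deviations of the wt/flox pair mirror each other by construction, so this check cannot decide whether the mice pair by age.

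With 2 or 3 mice a group, the 95% intervals of Socs2, Cish and Igfbp1 were the widest of the 10 in the comparisons with wt/wt. Igfbp3, at 50 to 568 reads a library, rested on the thinnest counts of the 10.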
